A study of Mus musculus with 6 samples.

Results

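Myeloid cells carry surface receptors whose cytoplasmic tails hold an immunoreceptor tyrosine-based inhibitory motif, or ITIM. When such a receptor is engaged, the motif is phosphorylated by Src-family kinases and recruits phosphatases, chiefly SHP-1, the product of Ptpn6, which dampen activating signals. Siglec-E, the sialic acid receptor deleted in the mice of this study, signals in this way, and the genes examined here are those of other receptors that use the same machinery. They are 10 genes of the 55291 in the count table, chosen by name: the receptors Sirpa, Pirb, Lair1, Cd300a, Cd300lf, Pilra, Clec12a and Clec4a2, the SIRPα ligand Cd47, and Ptpn6. Each of the 10 had reads in every library and passed the filter on low counts.

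The study compared tumours grown under the skin from CT2A cells, a glioma line of the mouse, with 3 libraries from Siglece knockout (KO) mice and 3 libraries from wild-type (WT) mice. The labels give the tissue as subcutaneous tumour, the cell line as CT2A, the cell type as mouse GBM and the source as brain, and they name no strain, age, sex, treatment, type of deletion or cell sort. Nothing states that each library is a different animal, so p-values measure the spread between these libraries, which may be partly technical. Expression is given as CPM, the usual depth-scaled count, on library totals adjusted by the TMM method, unless TPM, which also divides by gene length, is named. In bulk tumour RNA, more cells of a type and more RNA per cell cannot be told apart.

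Libraries held 24369359 to 40574093 counts. Siglece had 0, 8 and 0 counts in KO replicates 1, 2 and 3, against 74, 99 and 64 counts in WT replicates 1, 2 and 3. KO replicate 2 stood between the groups and nearer to WT. On the first principal component (72.7% of the variance) it lay at 17.7. KO replicates 1 and 3 lay at -116 and -179, and WT libraries between 84.7 and 97.1. The log2 CPM of KO replicate 2 had a mean Pearson's r of 0.953 with the WT libraries and 0.894 with the other KO libraries. Neural and glial genes of the tumour line, 9 genes with Sox2, Olig2 and Nes among them, summed to 48.8 to 598 CPM in KO libraries, with the highest sum in KO replicate 2, against 860 to 894 CPM in WT libraries. Gfap, the astrocyte filament gene, was at 0 in KO replicate 3. Leukocyte genes went the other way, with a sum over 8 pan-leukocyte genes of 1221 to 4488 CPM in KO libraries, lowest in KO replicate 2, against 421 to 552 CPM in WT libraries.

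RNA of most of these inhibitory receptors and of SHP-1 was higher in the tumours of KO mice. Of the 10 genes, 8 passed the test as higher in KO (adjusted p under 0.05, quasi-likelihood F test of edgeR with Benjamini-Hochberg adjustment over 18621 genes), with 11.2% of all tested genes called in that direction. Sirpa, Pirb, Lair1, Cd300a, Cd300lf, Clec12a, Clec4a2 and Ptpn6 rose, and Cd47 and Pilra did not pass. None was called lower, and 0.226% of all tested genes were. The median log2 fold change of the 10 genes was 2.38, against -0.05 over all tested genes. The lowest KO library lay above the highest WT library for each of the 10 genes, as it did for 24.6% of all tested genes; the reverse held for 0 of the 10 and 19.5% of all tested genes. The calls rested on few libraries: edgeR called 0 of the 10 when KO replicate 1 or any single WT library was left out (9 without KO replicate 1, and 10, 9 and 8 without WT replicates 1, 2 and 3, had an unadjusted p under 0.05). In those edgeR fits 0 of all genes were called higher. An unadjusted p under 0.05, in either direction, was held by 3461 of 19380 genes without KO replicate 1. It was held by 4931 of 19694, 4282 of 19483 and 4246 of 19503 genes without WT replicates 1, 2 and 3. DESeq2 called 8 of the 10 without KO replicate 1 (10.7% of all genes), 9 without WT replicate 1 (14.3%), 8 without WT replicate 2 (12.5%) and 8 without WT replicate 3 (12.2%), and limma-voom called 0 of the 10 and 0 of all genes in each of these 4. Without KO replicate 3, edgeR called 6 (4.85% of all genes), with Clec4a2 and Ptpn6 lost (adjusted p = 0.0530 and 0.0599), and without KO replicate 2 it called 9 (22.7%). Without KO replicate 3, DESeq2 called 8 (13.2%) and limma-voom 0 (0 of all genes); without KO replicate 2, DESeq2 called 10 (24% of all genes) and limma-voom 9 (22.7%). With all libraries, 8 were also called with RLE scaling (9.66% of all genes), without composition scaling (9.19%), without a low-count filter (8.71%), with a stricter filter (13.3%) and with robust fitting (10.8%), 7 with limma-voom (5.31%), 9 with DESeq2 (17.9%) and 10 with limma-voom and quality weights (29.7%).

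**Figure D1:**
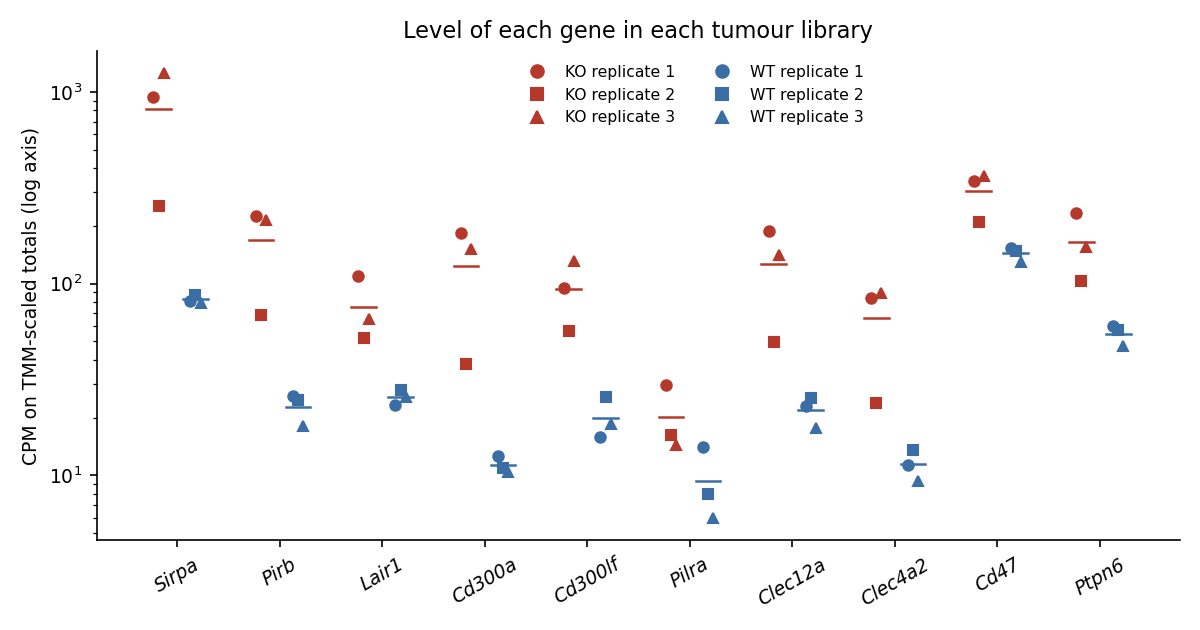
Expression of each of the 10 genes in each tumour library, in CPM on TMM-scaled totals (log axis). Red symbols on the left of each pair are the 3 KO libraries, blue symbols on the right the 3 WT libraries, symbol shape gives the replicate and bars the group means. KO libraries sit above WT libraries for each gene, and KO replicate 2 is the lowest KO library for each gene except Pilra, where KO replicate 3 is.

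Stretches before the starts of these genes are shown here because most of the receptor genes rose together and some share a chromosome. PU.1, a transcription factor of myeloid cells, binds purine-rich DNA around a GGAA core, and the letters GAGGAAG were searched on both strands in windows running from 250 bases before to 50 bases after each gene start (RefSeq, GRCm38.p6, which is mm10). Windows were given for 9 of the 10 genes, all but Sirpa. The letters stood in the windows of 6 of these 9, Pirb, Lair1, Cd300a, Cd300lf, Pilra and Clec12a, and in those of 15.4% of all 27025 genes with a window. The longer GAGGAAGT, which contains the first, stood in those of Pirb and Cd300lf and of 3.69% of all genes. TTTCNNTTC, the core of interferon-responsive elements, was found at Lair1 and Pilra (8.68% of all genes), and TGACTCA, which AP-1 factors bind, at Clec4a2 (5.95%). These are matches of letters and not sites shown to be bound. The windows of Cd300a, Pirb and Cd300lf, receptor genes with a match, are printed beside that of Cd47, which has none and is 74.0% G and C. The Cd47 window does hold the shorter GGAA. Match and call did not always go together: Clec4a2 and Ptpn6 rose without a match, and Pilra has a match and did not pass. The motifs were picked with the values in view, and a link of the letters to the rise was not tested. Sequences run 5′ to 3′ on the strand of the gene, and capitals mark GAGGAAG or its reverse complement.
Cd300a, chr11:114889791-114890090, plus strand: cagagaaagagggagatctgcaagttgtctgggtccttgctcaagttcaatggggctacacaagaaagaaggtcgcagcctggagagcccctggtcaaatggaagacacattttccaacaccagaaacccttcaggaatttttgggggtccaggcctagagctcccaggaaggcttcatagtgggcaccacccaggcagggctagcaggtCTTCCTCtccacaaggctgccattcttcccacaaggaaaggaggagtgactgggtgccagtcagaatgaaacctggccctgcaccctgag
Pirb, chr7:3720333-3720632, minus strand: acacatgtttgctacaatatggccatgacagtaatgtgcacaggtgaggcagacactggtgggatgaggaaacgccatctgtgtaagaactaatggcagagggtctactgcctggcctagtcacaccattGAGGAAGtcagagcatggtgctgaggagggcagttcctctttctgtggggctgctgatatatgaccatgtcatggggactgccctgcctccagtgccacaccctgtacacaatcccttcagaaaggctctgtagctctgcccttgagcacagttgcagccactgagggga
Cd300lf, chr11:115133943-115134242, minus strand: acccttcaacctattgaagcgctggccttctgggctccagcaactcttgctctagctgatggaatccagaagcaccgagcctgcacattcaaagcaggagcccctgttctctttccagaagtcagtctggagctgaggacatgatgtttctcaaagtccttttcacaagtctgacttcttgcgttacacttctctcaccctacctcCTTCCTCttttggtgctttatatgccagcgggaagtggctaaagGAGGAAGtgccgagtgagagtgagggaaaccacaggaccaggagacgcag
Cd47, chr16:49855404-49855703, plus strand: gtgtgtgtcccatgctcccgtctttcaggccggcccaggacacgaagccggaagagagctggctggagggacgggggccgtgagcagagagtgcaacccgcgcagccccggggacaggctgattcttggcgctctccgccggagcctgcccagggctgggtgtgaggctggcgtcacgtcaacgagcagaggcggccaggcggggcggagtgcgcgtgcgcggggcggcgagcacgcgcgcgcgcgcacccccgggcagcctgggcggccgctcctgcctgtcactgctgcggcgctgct

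Sirpa (ENSMUSG00000037902.18, chr2:129592835-129632228, plus strand, mm10) encodes SIRPα, the receptor through which CD47 on a target cell restrains phagocytosis by macrophages. It was at 942, 255 and 1255 CPM in KO replicates 1, 2 and 3, against 81.4, 87.7 and 79.0 CPM in WT replicates 1, 2 and 3. The WT libraries lay within 1.11-fold of each other and the KO libraries within 4.91-fold, and the groups did not overlap. The rise was 9.88-fold (log2 fold change 3.30, SE 0.59, adjusted p = 0.0246, edgeR), and it was called in each fit that kept all 6 libraries. SIRPα is also made by neurons, and of 5 neuron genes 3 were tested and 0 called (edgeR; 1 of them, Stmn2, had an unadjusted p under 0.05, at 0.0178, and lay higher in KO). The sum of the 5 was 7.03 to 56.1 CPM in KO libraries, against 65.4 to 75.3 CPM in WT libraries. It was led in WT libraries by Tubb3, at 70.0, 59.5 and 58.1 CPM in WT replicates 1, 2 and 3. Rbfox3, which was not tested, lay higher in KO at low levels (0.256 to 1.15 CPM in KO libraries, 0.0273 to 0.0595 CPM in WT libraries). The part of neurons in the Sirpa result was not tested.

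Cd300a and Cd300lf lie on chromosome 11 and encode lipid-binding receptors of myeloid cells that recognise phospholipids exposed on dying cells. Cd300a (ENSMUSG00000034652.12, chr11:114890041-114904654, plus strand, mm10) was at 183, 37.9 and 152 CPM in KO replicates 1, 2 and 3, against 12.7, 10.9 and 10.4 CPM in WT replicates 1, 2 and 3. KO replicate 2 was closer to the WT libraries than to the other KO libraries but did not reach them. With a log2 fold change of 3.45 (SE 0.56, adjusted p = 0.0246, edgeR), a 10.9-fold rise, Cd300a had the greatest fold change of the 10 genes, above 97.8% of all tested genes. Cd300lf (ENSMUSG00000047798.15, chr11:115116214-115133992, minus strand, mm10) was at 94.3, 56.6 and 131 CPM in KO replicates 1, 2 and 3, against 15.9, 25.6 and 18.4 CPM in WT replicates 1, 2 and 3. Its KO libraries were more alike than those of Cd300a, and its rise was 4.69-fold (log2 fold change 2.23, SE 0.37, adjusted p = 0.0246, edgeR).

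Pirb and Lair1 lie on chromosome 7. Pirb (ENSMUSG00000058818.13, chr7:3711409-3720391, minus strand, mm10) encodes paired immunoglobulin-like receptor B, an inhibitory receptor for MHC class I molecules. It was at 225, 68.8 and 214 CPM in KO replicates 1, 2 and 3, against 25.8, 24.8 and 18.0 CPM in WT replicates 1, 2 and 3, and the rise was 7.41-fold (log2 fold change 2.89, SE 0.48, adjusted p = 0.0246, edgeR). KO replicates 1 and 3 were alike and KO replicate 2 held a smaller excess over WT. Lair1 (ENSMUSG00000055541.17, chr7:4003402-4063204, minus strand, mm10), whose product binds collagens and the complement protein C1q, was at 110, 51.8 and 65.6 CPM in KO replicates 1, 2 and 3, against 23.1, 28.0 and 25.6 CPM in WT replicates 1, 2 and 3. Its rise was 2.96-fold (log2 fold change 1.57, SE 0.33, adjusted p = 0.0281, edgeR), and KO replicate 1 was the highest library.

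The C-type lectin receptors Clec12a and Clec4a2 lie on chromosome 6. Clec12a (ENSMUSG00000053063.11, chr6:129342691-129365303, plus strand, mm10), an inhibitory receptor that senses uric acid crystals released by dead cells, was at 187, 49.8 and 142 CPM in KO replicates 1, 2 and 3, against 23.0, 25.2 and 17.6 CPM in WT replicates 1, 2 and 3. Clec4a2 (ENSMUSG00000030148.15, chr6:123106428-123143999, plus strand, mm10), a mouse counterpart of the human dendritic cell immunoreceptor DCIR, was at 84.4, 24.0 and 89.6 CPM in KO replicates 1, 2 and 3, against 11.3, 13.5 and 9.37 CPM in WT replicates 1, 2 and 3. Both had their lowest KO level in replicate 2, and both rose, Clec12a 5.75-fold and Clec4a2 5.78-fold (log2 fold changes 2.52, SE 0.48, and 2.53, SE 0.50, adjusted p = 0.0249 and 0.0256, edgeR). Clec4a2 missed the threshold with limma-voom (adjusted p = 0.0510).

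Pilra (ENSMUSG00000046245.13, chr5:137821952-137836281, minus strand, mm10) encodes an inhibitory receptor for sialylated glycoproteins. It was at 29.5, 16.3 and 14.4 CPM in KO replicates 1, 2 and 3, against 14.0, 8.03 and 5.98 CPM in WT replicates 1, 2 and 3. KO replicate 3 barely exceeded WT replicate 1, and the difference did not pass (log2 fold change 1.10, SE 0.44, adjusted p = 0.137, edgeR). It was called with limma-voom and quality weights (adjusted p = 0.000680) and with DESeq2 without KO replicate 2. Exons of Pilra overlap those of Zcwpw1, which had 131 to 213 counts in KO libraries and 237 to 542 counts in WT libraries; the libraries did not mark strand, so reads of the overlap cannot be assigned to either gene. Pilra had 289 to 868 counts in KO libraries and 201 to 514 counts in WT libraries.

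Cd47 (ENSMUSG00000055447.19, chr16:49800533-49915010, plus strand, mm10) encodes the broadly expressed ligand of SIRPα, known as a signal against engulfment. It was at 345, 209 and 362 CPM in KO replicates 1, 2 and 3, against 154, 148 and 130 CPM in WT replicates 1, 2 and 3. The groups did not overlap, yet the difference did not pass the threshold (log2 fold change 1.09, SE 0.31, adjusted p = 0.0639, edgeR). DESeq2 called it higher (adjusted p = 0.0159), as did edgeR without KO replicate 2 (0.00664) and limma-voom with quality weights (0.000537).

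Ptpn6 (ENSMUSG00000004266.15, chr6:124720707-124738714, minus strand, mm10), the SHP-1 phosphatase gene of blood cells, was at 234, 103 and 154 CPM in KO replicates 1, 2 and 3, against 60.1, 57.3 and 47.4 CPM in WT replicates 1, 2 and 3. It rose 2.99-fold (log2 fold change 1.58, SE 0.35, adjusted p = 0.0309, edgeR), with KO replicate 1 the highest library. Exons of Ptpn6 overlap those of the predicted gene Gm20531, which had 5 to 22 counts in KO libraries and 2 to 14 counts in WT libraries. Ptpn11, which encodes the broadly expressed relative SHP-2 and was singled out after its values were seen, averaged 113 ± 12.9 CPM over KO libraries and 111 ± 18.6 CPM over WT libraries (SD, n = 3 each), a log2 fold change of 0.03 (SE 0.26, adjusted p = 0.947, edgeR). The Ptpn6 to Ptpn11 count ratio was 1.97, 0.852 and 1.58 in KO replicates 1, 2 and 3, against 0.668, 0.496 and 0.375 in WT replicates 1, 2 and 3 (p = 0.1 by exact permutation, two-sided, the smallest that 3 against 3 libraries allow; 0.2 after Benjamini-Hochberg adjustment over 8 ratios to non-members, all chosen after values were seen).

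**Figure D2:**
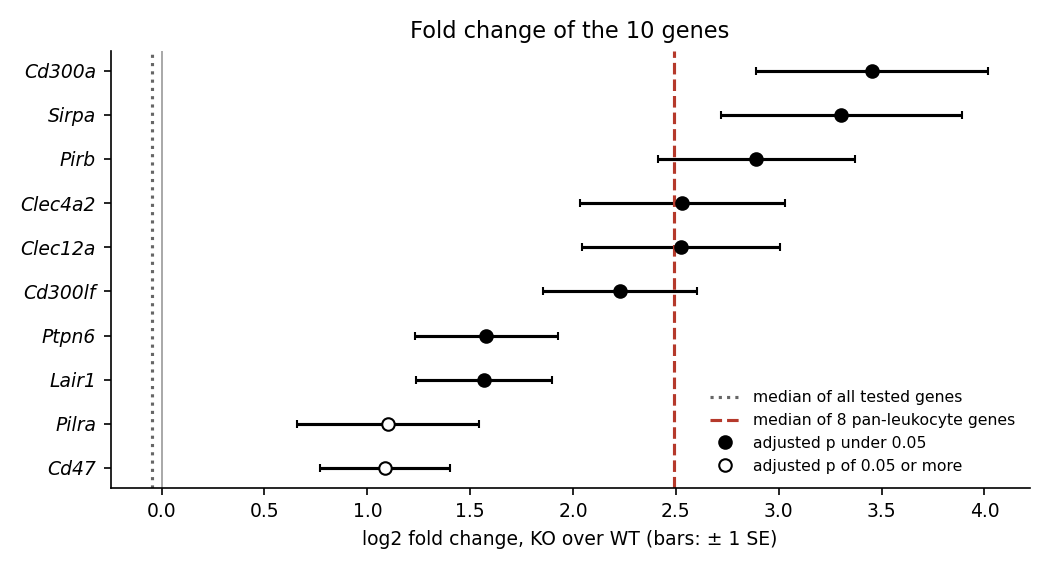
Log2 fold change of each gene, KO over WT, from edgeR (points, with bars of ± 1 SE; filled where the adjusted p is under 0.05). The dotted line is the median of all tested genes (-0.05) and the dashed line that of 8 pan-leukocyte genes (2.49); Cd300a and Sirpa are the highest points and Cd47 the lowest.

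Set against the leukocyte genes of the same tumours, the receptors were spread to either side. The 8 pan-leukocyte genes, Ptprc (CD45) among them, were all called higher in KO, with a median log2 fold change of 2.49, and of 12 macrophage genes 9 were, with a median of 2.37. Of all tested genes 11.2% were called higher. Each gene's count was divided by the summed count of the pan-leukocyte genes in the same library. Relative to that sum, Cd300a was 1.68-fold, Sirpa 1.52-fold and Pirb 1.24-fold as high in KO as in WT, and for each of these the groups did not overlap. Of all tested genes outside the divisor 1.42% lay higher in KO on this scale without overlap. Cd47 (0.386-fold), Pilra (0.406-fold) and Ptpn6 (0.531-fold) lay lower in KO, also without overlap, as did 76.9% of all tested genes outside the divisor, so that these 3 were on the side of most genes. By exact two-sided permutation, p was 0.1 for each of these 6 genes, the smallest possible, and 0.167 after Benjamini-Hochberg adjustment over the 10 genes. Lair1 (0.528-fold, exact permutation p = 0.2), Cd300lf (0.846-fold, 0.6), Clec4a2 (0.938-fold, 0.5) and Clec12a (0.946-fold, 0.7) had groups that overlapped.

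For Sirpa the log2 ratio to the pan-leukocyte sum was -1.87, -2.26 and -1.84 in KO replicates 1, 2 and 3, against -2.76, -2.60 and -2.41 in WT replicates 1, 2 and 3. For Cd47 it was -3.32, -2.55 and -3.63 in KO replicates 1, 2 and 3, against -1.84, -1.84 and -1.70 in WT replicates 1, 2 and 3. KO replicate 2, the KO library with the lowest leukocyte sum, lay nearest to WT in both. With the summed macrophage genes as the divisor, the log2 ratio of Sirpa was 0.58 higher in KO than in WT, Cd300a was 1.66-fold, Cd47 0.381-fold and Ptpn6 0.524-fold in KO over WT, again without overlap, while the groups of Pirb and Pilra overlapped; of all tested genes outside the divisor 1.31% lay higher and 73.6% lower without overlap. With Ptprc alone as the divisor the groups of Sirpa (2.12-fold), Cd300a (2.35-fold), Pirb and Pilra overlapped, and those of Cd47 (0.539-fold), Ptpn6 (0.740-fold) and Lair1 (0.736-fold) did not; here 2.35% of all tested genes outside the divisor lay higher and 71.3% lower without overlap. The pan-leukocyte sum itself was led by Laptm5, a lysosomal membrane protein gene of blood cells, at 1059, 316 and 2199 CPM in KO replicates 1, 2 and 3, against 152, 126 and 113 CPM in WT replicates 1, 2 and 3.

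**Figure D3:**
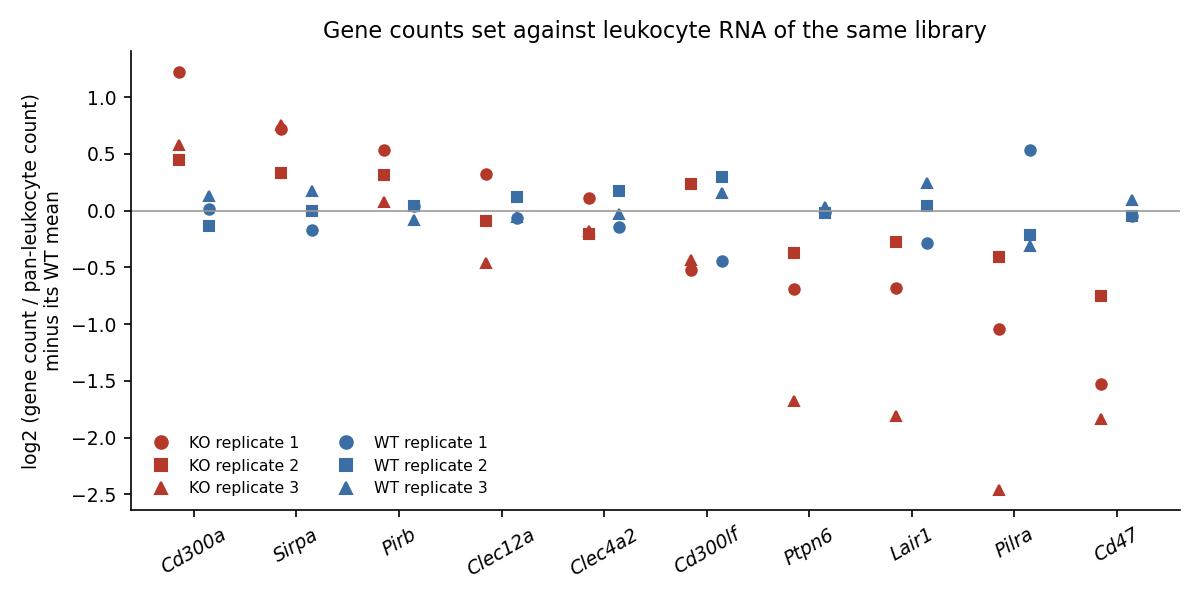
Log2 ratio of each gene's count to the summed count of 8 pan-leukocyte genes in the same library, minus the mean of the 3 WT libraries. Red symbols on the left of each pair are KO libraries and blue symbols on the right WT libraries; Cd300a, Sirpa and Pirb lie above WT in each KO library, Cd47, Ptpn6 and Pilra below.

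The ratio of ligand to receptor RNA did not overlap between the groups. There were 0.366, 0.818 and 0.289 counts of Cd47 for each count of Sirpa in KO replicates 1, 2 and 3, against 1.89, 1.68 and 1.64 in WT replicates 1, 2 and 3. Sirpa counts therefore exceeded those of Cd47 in each KO library and fell short of them in each WT library. The ratio in KO was 0.255 times that in WT (log2 difference -1.97, exact two-sided permutation p = 0.1), and the log2 difference ran from -2.42 to -1.67 as each library was left out in turn. Counts depend on gene length, which is the same in both groups, so the change of the ratio does not, but its level does. Adjusted over all 45 pairs among the 10 genes, the p was 0.188. Of these 45 pairs, 24 had groups that did not overlap, so the lack of overlap was not particular to Cd47 and Sirpa.

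On the scale per length, the order of the genes differed between the groups. In KO the TPM levels ran Sirpa (403 ± 204), Ptpn6 (154 ± 68.2), Cd47 (125 ± 24.2), Pirb (95.0 ± 45.2), Cd300a (65.6 ± 40.7), Clec12a (58.1 ± 33.0), Clec4a2 (55.8 ± 27.2), Cd300lf (45.6 ± 8.80), Lair1 (26.9 ± 12.3) and Pilra (17.6 ± 8.64; SD, n = 3 each). In WT the TPM levels ran Cd47 (67.4 ± 15.9), Ptpn6 (57.5 ± 13.4), Sirpa (50.2 ± 14.6), Pirb (14.9 ± 3.75), Cd300lf (11.9 ± 5.42), Clec12a (11.7 ± 3.64), Clec4a2 (11.6 ± 4.04), Lair1 (10.3 ± 3.54), and Pilra (8.29 ± 1.39; SD, n = 3 each), with Cd300a last at 5.43, 7.93 and 7.63 TPM in WT replicates 1, 2 and 3. Sirpa was the highest of the 10 in each KO library, and Cd47, Ptpn6 and Sirpa stood in that order in each WT library. Most neighbours in these orders differed by less than their SD, the gap between Sirpa and Ptpn6 in KO and that between Sirpa and Pirb in WT being the widest. Lengths matter most for 2 of the genes. Here a gene's own length was changed to that of the longest coding transcript in place of the merged exons, with the library scaling kept. Cd300lf was then at 125 TPM in KO and 32.6 TPM in WT, and Clec12a at 128 TPM in KO and 25.9 TPM in WT. Cd47 in KO and Pilra in WT also moved by slightly more than their SD.

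Sirpa made up the widest part of the summed TPM of the 8 receptors in each library, 51.3 ± 7.35% in KO and 39.7 ± 2.60% in WT (SD, n = 3 each). Its share was 49.7%, 44.9% and 59.3% in KO replicates 1, 2 and 3, against 37.9%, 38.7% and 42.7% in WT replicates 1, 2 and 3. The difference of 11.6 percentage points was 7.55 without KO replicate 3. The share of Cd300a was 8.12 ± 1.64% in KO and 5.65 ± 0.580% in WT. Lair1 held 3.95 ± 1.98% in KO and 8.09 ± 1.02% in WT, Pilra 2.70 ± 1.74% in KO and 7.05 ± 2.90% in WT, and Clec4a2 7.22 ± 0.217% in KO and 9.12 ± 0.787% in WT. For these 5 genes the groups did not overlap, with an exact permutation p of 0.1 (0.16 after adjustment over the 8 receptors). Shares are parts of a common sum, so a lower share is a relative one. Mean TPM was higher in KO than in WT for Lair1 (26.9 against 10.3), Pilra (17.6 against 8.29) and Clec4a2 (55.8 against 11.6). Over the longest coding transcript the Sirpa share was 46.2 ± 7.57% in KO and 34.5 ± 2.30% in WT. The shares of Pirb, Cd300lf and Clec12a overlapped between the groups.

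**Figure D4:**
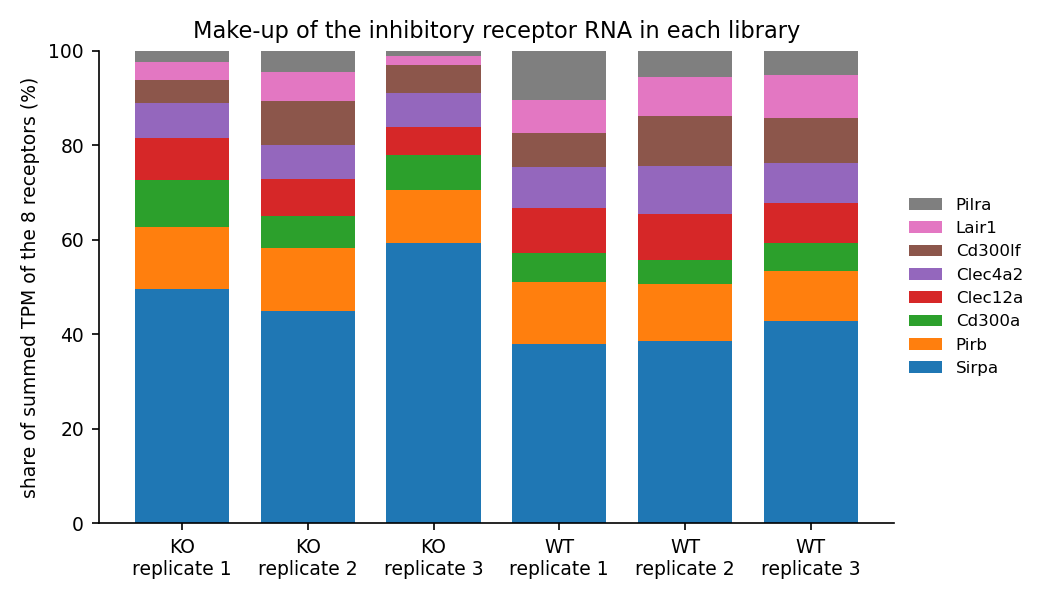
Share of each receptor gene in the summed TPM of the 8 receptors (%), as stacked bars for the 3 KO libraries on the left and the 3 WT libraries on the right. The Sirpa share is 44.9% to 59.3% in KO libraries and 37.9% to 42.7% in WT libraries, and Lair1 and Pilra take narrower bands in KO.

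Some other ITIM receptors rose as well, with 11.2% of all tested genes called higher (edgeR). Of 11 further genes, 8 were tested and 3 rose: Lilrb4a, an inhibitory receptor of myeloid cells (log2 fold change 1.99, SE 0.35), Pecam1, the CD31 adhesion molecule of endothelium and leukocytes (3.08, SE 0.56), and Fcgr2b, the inhibitory receptor for IgG (2.54, SE 0.48; adjusted p = 0.0246 to 0.0249, edgeR). Pecam1 was at 150, 88.2 and 390 CPM in KO replicates 1, 2 and 3, against 22.1, 29.7 and 22.5 CPM in WT replicates 1, 2 and 3, and of 5 endothelial genes 4 were called higher, their sum 172 to 436 CPM in KO libraries against 32.4 to 50.4 CPM in WT libraries. The part of endothelium in the Pecam1 result was not tested. Treml1, a receptor of platelets, did not pass (mean 1.95 ± 1.77 CPM over KO libraries and 0.102 ± 0.0962 CPM over WT libraries, SD, n = 3 each, adjusted p = 0.0619, edgeR). The median log2 fold change of the 8 tested genes was 1.69.

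Many activating partners of the inhibitory receptors rose beside them. The paired receptors signal through the adaptors DAP12 (Tyrobp) and the Fc receptor gamma chain (Fcer1g) to the kinase Syk. Of 22 genes, 20 were tested and 12 rose (11.2% of all tested genes were called higher), with a median log2 fold change of 2.37. Syk was at 255, 67.8 and 285 CPM in KO replicates 1, 2 and 3, against 24.3, 30.5 and 27.1 CPM in WT replicates 1, 2 and 3 (log2 fold change 2.89, SE 0.53, adjusted p = 0.0246, edgeR). Fcer1g (2.42, SE 0.52), Cd300lb, an activating relative of Cd300a (3.60, SE 0.77), and Clec4d, an activating C-type lectin (3.17, SE 0.68), also rose (log2 fold changes; adjusted p = 0.0289 to 0.0295, edgeR). Sirpa had 10.4, 6.71 and 35.2 counts for each count of its activating relatives Sirpb1a, Sirpb1b and Sirpb1c together in KO replicates 1, 2 and 3, against 3.50 to 5.33 in WT libraries (exact two-sided permutation p = 0.1; this ratio and those of Pilra and Ptpn6 to non-members belong to the 8 named above). Pilra had 1.49, 2.08 and 1.64 counts for each count of Pilrb1 and Pilrb2 in KO replicates 1, 2 and 3, against 3.27, 2.59 and 1.73 in WT replicates 1, 2 and 3, and these groups overlapped (exact p = 0.2). Other inhibitory receptors set against an activating relative overlapped too: KO libraries had 1.19 to 3.97 counts of Cd300a for each count of Cd300ld and WT libraries 1.75 to 2.44 (exact permutation p = 0.8). There were 2.28 to 9.60 counts of Cd300lf for each count of Cd300lb in KO libraries and 7.55 to 8.57 in WT libraries (exact p = 0.4), and 0.851 to 2.70 counts of Clec4a2 for each count of Clec4n in KO libraries and 0.599 to 1.33 in WT libraries (exact p = 0.3). Of the 8 ratios to non-members, 4 had groups without overlap, that of Sirpa and the 3 of Ptpn6. Sequences within the Sirp, Pir, Clec4a and Pilr families are similar, and how reads with several alignments were counted is not given in the sources used here, so the split of counts within a family is uncertain.

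Of 14 signalling genes downstream of ITIM receptors, 8 rose (11.2% of all tested genes were called higher), with a median log2 fold change of 1.51. Fgr, a Src-family kinase of myeloid cells (2.63, SE 0.39), Inpp5d, the lipid phosphatase SHIP-1 (2.49, SE 0.43), Fyb, an adaptor of leukocyte adhesion (2.30, SE 0.45), and Dok3, an inhibitory adaptor (1.88, SE 0.40), had the smallest p among them (log2 fold changes; adjusted p = 0.0246 to 0.0295, edgeR). There were 1.04, 1.18 and 0.674 counts of Ptpn6 for each count of Inpp5d in KO replicates 1, 2 and 3, against 1.42 to 2.45 in WT libraries (exact two-sided permutation p = 0.1). For each count of Syk there were 0.918, 1.52 and 0.541 counts of Ptpn6 in KO replicates 1, 2 and 3, against 2.47, 1.88 and 1.75 in WT replicates 1, 2 and 3 (exact p = 0.1). Both ratios were lower in KO than in WT libraries, without overlap, though some KO libraries still held more counts of Ptpn6 than of the other gene. Without composition scaling 5 of the 14 genes were called in place of 8.

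Ligands of the receptors other than Cd47 lay mostly higher in KO, and some, mainly those of Lair1, were called. The log2 fold change was above 0 for 14 of the 16 tested, and for 8999 of all 18621 tested genes, of which 11.2% were called higher. Of 18 genes, 16 were tested and 6 rose, with a median log2 fold change of 1.51; 0 were called lower with edgeR (0 lower at an unadjusted p under 0.05, and 1 called lower with DESeq2). The collagen genes Col1a1 (9214 ± 4484 CPM over KO libraries and 1138 ± 326 CPM over WT libraries) and Col3a1 (7161 ± 3986 CPM over KO libraries and 776 ± 191 CPM over WT libraries), whose products bind the Lair1 receptor, rose (SD, n = 3 each; adjusted p = 0.0249 for each, edgeR). Colec12, a collectin that binds the same receptor, averaged 88.0 ± 49.2 CPM over KO libraries and 16.3 ± 1.18 CPM over WT libraries, and C1qc, a chain of C1q, 1276 ± 668 CPM over KO libraries and 258 ± 69.9 CPM over WT libraries (SD, n = 3 each; adjusted p = 0.0246 and 0.0333, edgeR). Of the other C1q chains, C1qb was called higher (adjusted p = 0.0452, edgeR) and C1qa was not (adjusted p = 0.0614, edgeR). Mag was the remaining ligand called higher (adjusted p = 0.0340, edgeR). The MHC class I genes H2-K1, H2-D1 and B2m were not called (adjusted p = 0.192, 0.0930 and 0.504, edgeR). Rtn4 lay lower in KO and was not called (log2 fold change -0.61, adjusted p = 0.193, edgeR). All 6 fibroblast genes were called higher too, their sum 1147 to 3353 CPM in KO libraries against 292 to 374 CPM in WT libraries. The part of fibroblasts in the collagen result was not tested. Among genes of CD47 modification and of other signals between phagocyte and target, 4 of 8 rose, beside 11.2% of all tested genes, with a median log2 fold change of 2.22. They were Slamf7, a receptor that promotes engulfment (2.26, SE 0.38), Lrp1, the receptor of surface calreticulin (2.45, SE 0.47), the inhibitory receptor Cd200r1 (3.47, SE 0.74) and its ligand Cd200 (2.42, SE 0.61; log2 fold changes, adjusted p = 0.0246 to 0.0438, edgeR).

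**Figure D5:**
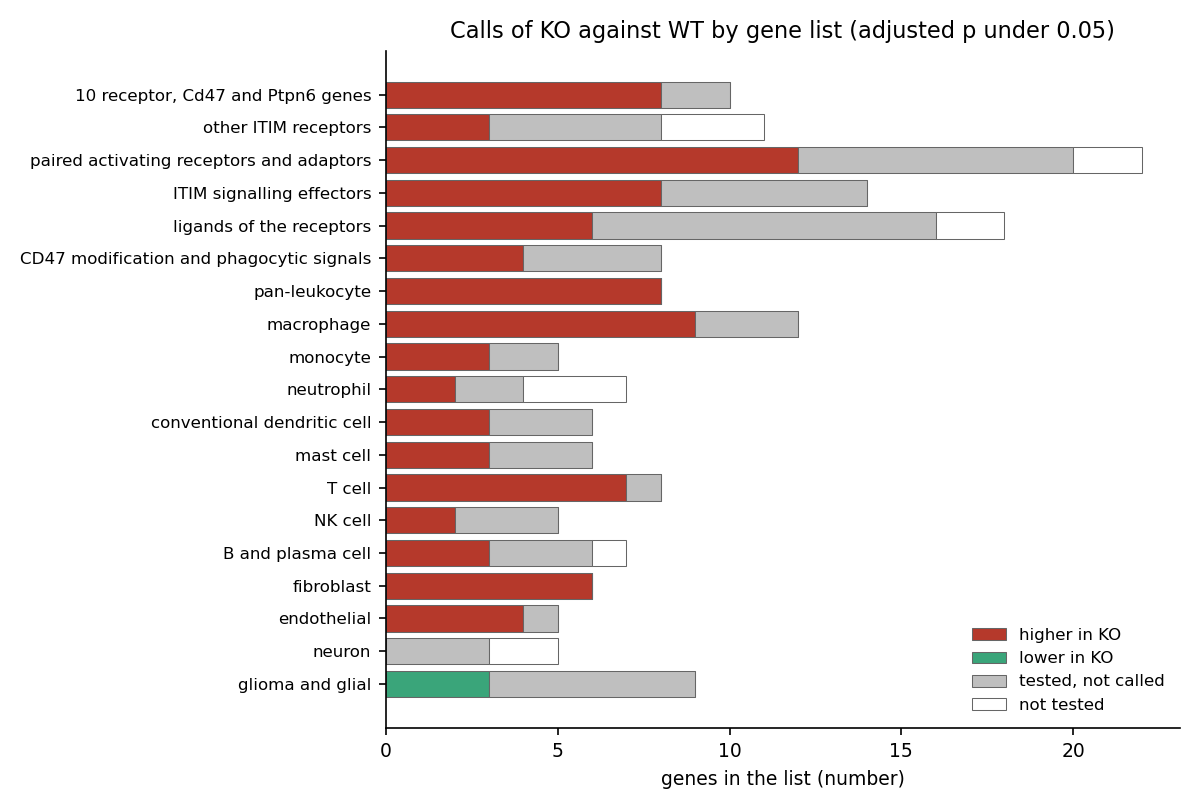
Number of genes in each list called higher in KO (red), called lower in KO (green), tested and not called (grey) or not tested (white), from edgeR at an adjusted p under 0.05. Of the 10 genes described here 8 are red; the pan-leukocyte and fibroblast lists are red throughout, and glioma and glial genes are the list with green.

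Many markers of several leukocyte types moved together with the receptors, with 11.2% of all tested genes called higher. Besides the macrophage genes, 3 of 5 monocyte, 2 of 7 neutrophil, 3 of 6 conventional dendritic cell, 3 of 6 mast cell, 7 of 8 T cell, 2 of 5 NK cell and 3 of 7 B and plasma cell genes were called higher, and 0 called lower in these lists (edgeR). Summed levels did not overlap between groups in any of these lists: macrophage genes summed to 2455 to 10518 CPM in KO libraries against 1082 to 1298 CPM in WT libraries, and T cell genes to 188 to 593 CPM in KO libraries against 64.5 to 112 CPM in WT libraries. Not every gene followed its sum. The neutrophil gene S100a8 was at 0.238, 0.968 and 36.1 CPM in KO replicates 1, 2 and 3, against 0.327 to 0.902 CPM in WT libraries. Groups of S100a9 and Cxcr2 overlapped too, and Ly6g was at 0 CPM in each KO library. In the mast cell and the B and plasma cell lists, 5 of 6 tested genes lay higher in KO. The exceptions, Kit and Pax5 (log2 fold changes -0.24 and -1.36, edgeR), were not called. The part of each cell type in the receptor results was not tested. Pearson's r of a gene's log2 CPM with the mean of the pan-leukocyte genes over the 6 libraries was 0.780 for Pilra, 0.950 for Lair1 and 0.974 to 0.999 for the other 8 genes, as a description, since libraries share composition. Among the genes most like Sirpa over the 6 libraries were Ticam2 and Arap1 (r of 0.9995 and 0.9993 on log2 CPM). Those most like Cd47 were Ehbp1l1, Hfe and Fcgr2b (0.9990 to 0.9995), and those most like Ptpn6 were Ccdc88b, Il10ra and Pitpnm1 (0.9985 to 0.9997), among 12607 candidates in each case.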

How the data were processed

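The values are raw counts of reads per gene in 6 libraries, which the authors deposited unnormalized beside each gene's exons and their merged length, per the file headers. Per the labels' protocols, Smart-seq2 was used on small numbers of cells; it copies whole transcripts and keeps no strand. The submitters' processing notes name mm10 and DESeq2. The aligner, the annotation release and the handling of multiply aligned reads: not given in the sources used here.

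edgeR 4.0.16 (R 4.3.3) compared KO with WT by its quasi-likelihood F test, two-sided, with TMM scaling, the filterByExpr defaults and no covariate. The filter kept 18621 genes with 99.9% of counts; p-values were adjusted over all of them and the threshold was 0.05. SE was taken as the size of the log2 fold change over the root of F. Log2 CPM used a prior count of 2. Ratios within a library were compared by exact permutation over libraries. Alternatives used RLE or no composition scaling, other filters, DESeq2 1.42.0, limma-voom (limma 3.58.1) with or without quality weights, robust fitting, and each library left out. A count of 3, the limit that a count of 0 allows, stood for 0.0820 to 0.150 CPM; this covers counting error only. No pair of libraries agreed within sampling noise (smallest chi-square per degree of freedom 11.4). Replicate numbers were given in accession order. Gene positions came from GENCODE M21, whose spans matched the table for each of the 10 genes. The model was also run on simulated counts in which libraries of a group shared 1 mean per gene. That run does not cover a library that stands apart from its group.

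The genes and lists were chosen with earlier results of these data known. The rule for named genes took the 10, up to 4 tested genes with the smallest p of each pathway list, and the 3 genes most like Sirpa, Cd47 and Ptpn6 in log2 CPM with a mean of 1 or more; 1 of these is not reported here. Genes outside it, the 8 ratios to other genes and the motifs were picked with their values in view; marker lists of cell types are given by counts and sums.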

Additional observations from a re-analysis of the deposited data

How the results depend on the processing

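Each of the 10 genes had a log2 fold change above 0 in all 15 fits. The choice of scaling moved the median log2 fold change of all genes from -0.05 to -0.12 (RLE) and -0.18 (no composition scaling). Of the 10 genes, 7 to 10 were called higher with all libraries; with a library left out, edgeR called 0 to 9, DESeq2 8 to 10 and limma-voom 0 to 9. Over all genes, 3266 were higher and 1244 lower with DESeq2, 988 higher with limma-voom, 5531 higher and 4749 lower with quality weights, and 24 and 476 lower without composition scaling and without a low-count filter; with a library left out, 0 to 4449 were higher and 0 to 3629 lower with edgeR, 1998 to 4709 higher and 86 to 4642 lower with DESeq2, and 0 to 4451 higher and 0 to 3515 lower with limma-voom. The ranges below are of edgeR.

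Of the other ITIM receptors 5 were higher without a low-count filter, 5 with DESeq2 and 7 with quality weights (0 to 7 with a library left out). Of the activating partners 4 were higher with limma-voom and 19 with quality weights (0 to 16). Of the signalling genes 5 were higher without composition scaling (0 to 11). Of the ligands 11 were higher with quality weights (0 to 9), and 1 was lower with DESeq2 and with quality weights. Of the phagocytic signals 2 were higher with limma-voom (0 to 5). Of all tested genes, 8.71% were higher without a low-count filter and 9.19% without composition scaling. The share was 17.9% with DESeq2, 5.31% with limma-voom, 29.7% with quality weights and 0 to 22.7% with a library left out. No gene of these 5 lists was called lower with a library left out (0 in each fit). The causes were not tested.

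Relative to pan-leukocyte genes 7 of the 10 genes were lower in KO, 4 with Ptprc as the divisor, and 6 to 7 with a library left out. These counts include genes whose groups overlapped. Of all tested genes outside the divisor, 76.9% lay lower without overlap on the pan-leukocyte scale and 71.3% on the Ptprc scale, so lower is the side of most genes. With Ptprc the log2 differences of Cd300lf, Clec12a and Clec4a2 turned to 0.24, 0.40 and 0.39. That of Clec12a, -0.08 with all libraries, ran from -0.28 to 0.11 with a library left out (above 0 without KO replicate 3). The Pirb share differed by 0.538 percentage points with all libraries and by -0.092 to 1.22 with a library left out (below 0 without WT replicate 3). No paired analysis was possible because the labels give no shared replicate numbers.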
